A study of Mus musculus with 15 samples.

Results

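The genes described here are integrin subunits and laminin chains other than Lama1, Lamb1 and Lamc1, measured in mouse embryonic stem (ES) cells. They were taken by name, from the genes on the array called Itga or Itgb with its number or letter, or Lama, Lamb or Lamc with a number, apart from those 3 laminins. Described are 33 genes (18 integrin alpha subunits, 8 integrin beta subunits and 7 laminin chains, read by 45 probes) of 31829 gene names on the array, and each gene was read by its brightest probe. The probe of 28 genes stood well above background on 3 or more arrays of some group, and these were tested among 25087 genes. The other 5 (Itga2, Itgad, Itgae, Itgax and Itgb8) did not pass and have no test. Of these, Itgae was well above background on 1 untreated shCTR array and the rest on none.

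Total RNA of ES cells was measured on 15 single-colour Agilent arrays in 4 groups. Cells transfected with sh4 and given 1 µM retinoic acid for 72 hours had 3 arrays, and cells transfected with shCTR and given the same treatment had 4. Untreated cells had 4 arrays with sh4 and 4 with shCTR. Retinoic acid, made in the body from vitamin A, makes ES cells differentiate. The names sh4 and shCTR have the usual form of short hairpin RNAs. The labels do not say what sh4 targets, while the series title names Phf19, a subunit of Polycomb repressive complex 2, and they give neither the ES cell line or strain, nor a time in culture for untreated cells, so retinoic acid cannot be told apart from 72 hours of culture. The samples are called biological replicates without a word on whether each was its own culture, and the p-values cover the spread between these samples alone. Precision is limited by the number of arrays. In bulk RNA, fewer cells of a type and less RNA per cell cannot be told apart.

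Integrins are receptors of 1 alpha and 1 beta chain that span the cell membrane and bind the extracellular matrix or other cells. Laminins are cross-shaped proteins of 1 alpha, 1 beta and 1 gamma chain that form the scaffold of basement membranes and are bound by several integrins. In the early embryo the first basement membrane lies between the endoderm and the epiblast, the tissue that ES cells resemble, and beta-1 integrins attach cells to it.

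Probe and promoter sequences of some of these genes are printed here, and a link of promoter sequence to the values that follow was not tested. The first are array probes of genes whose probes disagreed or were dim. Itga1 has a pair of probes whose changes differed, and the brighter one, which was used, is given first. Itgb6 was read by a probe whose signal stayed low. Each is a 60-base oligonucleotide whose position in the files (mm9) is longer than its own length: chr13:115821387-115825525 and chr13:115756765-115758419 for Itga1, and chr2:60438632-60443247 for Itgb6, all on the minus strand. No base is marked with a capital.
Itga1, probe used: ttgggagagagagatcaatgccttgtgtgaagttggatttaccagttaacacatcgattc
Itga1, other probe: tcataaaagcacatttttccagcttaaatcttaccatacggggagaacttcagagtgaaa
Itgb6, probe used: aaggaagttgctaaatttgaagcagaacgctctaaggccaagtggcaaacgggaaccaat

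The second are promoters of Itga8, Itga9 and Itgb7, among the genes whose changes with sh4 differed between retinoic acid-treated and untreated cells by limma. They run from 250 bases before to 50 bases after the gene start in RefSeq (GRCm38.p6), 5′ to 3′ along the gene, and capitals mark CpG dinucleotides. CpG-rich promoters are where Polycomb repressive complex 2 is found in ES cells, which is background and was not measured here. The Itga8 promoter lies at chr2:12301895-12302194 on the minus strand and holds 23 CpGs. The Itga9 promoter lies at chr9:118711442-118711741 on the plus strand and holds 10. The Itgb7 promoter lies at chr15:102231886-102232185 on the minus strand and holds 5.
Itga8: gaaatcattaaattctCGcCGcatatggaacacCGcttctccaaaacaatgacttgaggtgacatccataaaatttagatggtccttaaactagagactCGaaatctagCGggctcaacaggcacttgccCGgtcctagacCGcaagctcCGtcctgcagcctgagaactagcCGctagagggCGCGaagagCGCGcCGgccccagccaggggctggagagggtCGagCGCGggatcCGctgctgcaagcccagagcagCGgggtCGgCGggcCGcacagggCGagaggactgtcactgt
Itga9: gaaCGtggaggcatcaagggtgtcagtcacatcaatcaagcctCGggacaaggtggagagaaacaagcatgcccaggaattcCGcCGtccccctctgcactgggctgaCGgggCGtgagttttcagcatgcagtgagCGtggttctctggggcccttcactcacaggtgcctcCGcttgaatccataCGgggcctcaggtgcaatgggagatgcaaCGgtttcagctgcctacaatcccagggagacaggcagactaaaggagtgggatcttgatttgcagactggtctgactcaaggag
Itgb7: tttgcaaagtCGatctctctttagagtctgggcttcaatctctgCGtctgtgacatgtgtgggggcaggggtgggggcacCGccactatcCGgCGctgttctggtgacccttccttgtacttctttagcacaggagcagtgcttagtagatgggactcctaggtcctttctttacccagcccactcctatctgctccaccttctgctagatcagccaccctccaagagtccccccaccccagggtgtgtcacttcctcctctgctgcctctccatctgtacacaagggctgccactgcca

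RefSeq gave 25 such promoters for 22 of the 33 genes. Their median was 10 CpGs, against 7 over all 32851 promoters of the table, and they ran between 1 in Lama2 and 27 in Itgb1. The letters AGGTCA, 1 spelling of the core of the sites that retinoic acid receptors bind, were searched on both strands. They stood in 0 of the 25, against 16.3% of all promoters of the same length. Other spellings were not searched, and GGGTCA, for example, stands in the Itgb7 promoter above on the other strand. The letters AGATAA, a form of the site bound by GATA factors, stood on either strand in 1 of the 25, that of Itgax, against 11.2% of all promoters. These counts describe the letters in these windows only and do not show that receptor sites are absent.

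The signal of Phf19 was lower with sh4 under both treatments, without overlap: 111, 105 and 126 intensity units in retinoic acid-treated sh4 cells, against 205, 198, 199 and 237 in retinoic acid-treated shCTR cells, and 271, 284, 289 and 284 in untreated sh4 cells, against 869, 839.8, 1014 and 1022 in untreated shCTR cells. Its log2 fold change was −0.88 ± 0.09 with retinoic acid (standard error, limma adjusted p = 1.9e-05) and −1.73 ± 0.09 without (adjusted p = 7.3e-09). The share of probes well above background was 73.8% to 79.4%, and no spot was saturated. On the 4 slides, arrays of 1 slide deviated from their group means together (r of 0.115 to 0.607 in 21 pairs). On different slides r was −0.613 to 0.558 in 63 pairs. Each slide had its own scan, so slide and scan cannot be told apart. The extraction software asked for evaluation of 3 arrays, namely retinoic acid-treated sh4 replicate 1, untreated sh4 replicate 3 and untreated shCTR replicate 2. All 7 ES cell markers listed were well above background on all arrays, with a summed signal of 13738 to 22009 in retinoic acid-treated sh4 cells, 22700.1 to 26501 in retinoic acid-treated shCTR cells, 329457 to 354255 in untreated sh4 cells and 403183 to 443692 in untreated shCTR cells. All 7 fell with retinoic acid in both hairpins, where 31.6% of all genes fell in sh4 cells and 33.5% in shCTR cells. With sh4 against shCTR, 0 of the 7 rose and 1 fell in untreated cells (median −0.17), where 14.4% and 14.2% of all genes did. In retinoic acid-treated cells 2 rose and 4 fell with sh4 (median −0.75), where 10.9% and 10.3% of all genes did. Signals below are in intensity units after scaling all arrays to 1 common 75th percentile, and are compared within a gene only. Changes are log2 fold changes ± standard error, and "rose", "fell" and "called" are used only where the limma adjusted p was under 0.05.

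In untreated cells, sh4 against shCTR, the integrin and laminin genes were called mainly upwards. Of the 28 tested, 11 rose and 4 fell, where 14.4% of all genes tested rose and 14.2% fell. The median log2 fold change was 0.21 over the 28, against 0.02 over all genes. Past a 2-fold change, Itga8 rose, and Itga9 and Itgb3 fell, where 3.11% of all genes rose that far and 3.44% fell.

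Itga8 encodes the alpha-8 chain, which pairs with beta-1 and binds nephronectin in the developing kidney. It gave 596, 586, 717 and 634 units in untreated sh4 cells, against 198, 218, 231 and 216 in untreated shCTR cells. The lowest sh4 array was far above the highest shCTR array, and the log2 fold change was 1.55 ± 0.08 (adjusted p = 1.5e-08), between 1.43 and 1.63 within the 4 slides. After retinoic acid it gave 171, 187 and 195 units in sh4 cells, against 251, 227, 237 and 274 in shCTR cells. There the groups did not overlap either, but sh4 was the lower one, by a log2 fold change of −0.42 ± 0.09 (adjusted p = 0.0043). That smaller change did not pass under median centring (−0.40, adjusted p = 0.14) or normexp background correction (−0.35, adjusted p = 0.067). The difference of the changes, retinoic acid-treated minus untreated, was −1.97 ± 0.12 (adjusted p = 2.0e-07).

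Itga9 encodes the alpha-9 chain, which pairs with beta-1 and binds tenascin and osteopontin, among others. It gave 744, 655, 735 and 709.9 units in untreated sh4 cells, against 2064, 1939, 2074 and 2048 in untreated shCTR cells, a log2 fold change of −1.52 ± 0.10 (adjusted p = 7.3e-08). The 4 values of each group lay close together and far from those of the other. With retinoic acid it gave 1426, 1327 and 1508 units in sh4 cells and 1177, 1002, 1372 and 1426 in shCTR cells. These overlapped and the change of 0.20 ± 0.11 was not called (adjusted p = 0.23). The difference of the changes was 1.72 ± 0.14 (adjusted p = 2.6e-06).

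Itgb3 encodes the beta-3 chain, which pairs with alpha-V as a receptor for vitronectin and with alpha-IIb on platelets. It gave 218, 187, 256 and 225 units in untreated sh4 cells, against 437, 479, 434 and 424 in untreated shCTR cells. All sh4 arrays were lower, by a log2 fold change of −1.01 ± 0.09 (adjusted p = 1.7e-06). With retinoic acid it gave 568, 477 and 509 units in sh4 cells and 471, 506, 481 and 452 in shCTR cells, which overlapped (0.11 ± 0.10, adjusted p = 0.52). The difference of the changes was 1.12 ± 0.13 (adjusted p = 5.2e-05). A second Itgb3 probe gave −1.09 in untreated and −0.29 in retinoic acid-treated cells, and a difference of 0.80.

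Itgb7 encodes the beta-7 chain, known from lymphocytes, where it pairs with alpha-4 for homing to the gut and with alpha-E. It gave 6664, 7065, 8499 and 7297 units in untreated sh4 cells, against 13276, 12881, 14634 and 15195 in untreated shCTR cells, a log2 fold change of −0.93 ± 0.11 (adjusted p = 2.4e-05). The groups did not overlap. After retinoic acid the signal was low in both groups, with 546, 572 and 752 units in sh4 cells and 452, 439, 516 and 511 in shCTR cells. There sh4 was higher by 0.37 ± 0.12 (adjusted p = 0.044), a call that was lost in 16 of 26 alternative settings. The difference of the changes was 1.29 ± 0.16 (adjusted p = 8.2e-05).

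Itgb6 encodes the beta-6 chain, an epithelial partner of alpha-V that activates latent TGF-beta. It gave 14.6, 14.4 and 18.1 units in retinoic acid-treated sh4 cells, against 37.2, 31.9, 32.9 and 33.7 in retinoic acid-treated shCTR cells. All 7 arrays were well above background and did not overlap, and the log2 fold change was −1.12 ± 0.16 (adjusted p = 2.0e-04). In untreated cells the probe was well above background on no array, between 2.03 and 3.74 units in sh4 cells and between 2.09 and 2.37 in shCTR cells, so the fitted difference of −1.41 ± 0.22 (adjusted p = 4.1e-04) has no measured level on its untreated side. Normexp correction adds an offset of 50, more than any of these signals, and under it the change with retinoic acid was −0.28 (adjusted p = 0.40) and the difference −0.14 (adjusted p = 0.77). Its second probe was well above background on 0 arrays.

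**Figure D1:**
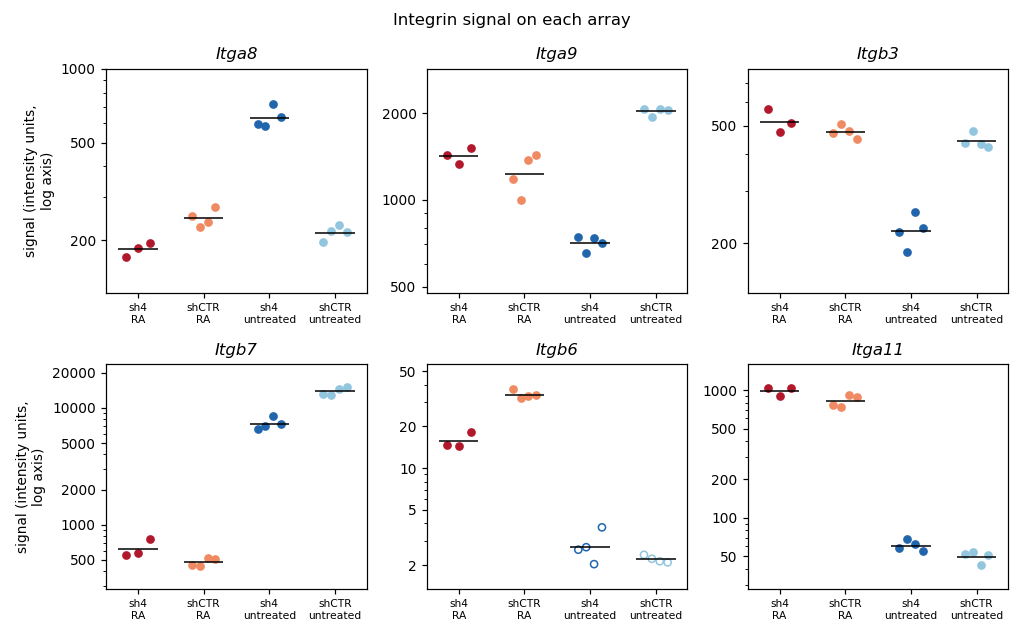
Signal of 6 integrin genes on each array (log axes, intensity units scaled to a common 75th percentile, a separate scale per gene). Each point is an array, open points were not well above background, and lines are means on the log scale. Itga8 is highest and Itga9 and Itgb3 are lowest in untreated sh4 cells, Itgb7 is lower and Itga11 higher in both retinoic acid-treated groups, and Itgb6 is measured only there.

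Itgb1, Itga3 and Itgav rose with sh4 in untreated cells. Itgb1, the common beta chain of most matrix receptors, averaged 1932 ± 272 units in untreated sh4 cells and 1241 ± 162 in untreated shCTR cells (SD, n = 4 each), a log2 fold change of 0.64 ± 0.11 (adjusted p = 8.0e-04). Itga3, a laminin-binding partner of beta-1, gave 699.9, 639, 781 and 804 units in sh4 cells and 384, 413, 427 and 427 in shCTR cells (0.82 ± 0.09, adjusted p = 1.0e-05). Itgav, the alpha chain of receptors for vitronectin and fibronectin, averaged 525 ± 45.7 units in sh4 cells and 310.3 ± 20.1 in shCTR cells (0.76 ± 0.09, adjusted p = 2.7e-05). For these 3 genes the groups did not overlap and no alternative removed the call.

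With retinoic acid the hairpin change of Itgb1 was −0.14 ± 0.12 (adjusted p = 0.54) and that of Itga3 was 0.24 ± 0.10 (adjusted p = 0.11). The difference of the changes was called for Itgb1 (−0.78 ± 0.17, adjusted p = 0.005) and for Itga3 (−0.58 ± 0.13, adjusted p = 0.0063), but not under median centring (adjusted p = 0.12 and 0.18). Itgav rose there too, by 0.39 ± 0.10 (adjusted p = 0.013), with 1119, 1031 and 914 units in sh4 cells and 702, 728, 844 and 847 in shCTR cells. The second Itgav probe gave −0.04 in that comparison and the call was lost in 5 of 26 settings: with probes averaged (0.17), under normexp correction, under median centring, without the 3 arrays rated for evaluation and without sh4 replicate 1 (0.32, adjusted p = 0.072). The difference of the Itgav changes was −0.37 ± 0.14 (adjusted p = 0.077). The second probe gave −0.71, and the mean over both probes was called (−0.54 ± 0.14, adjusted p = 0.016), in 1 of 25 alternative settings.

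Among the other laminin-binding and fibronectin-binding chains, Itga6, Itga7 and Itgb4 kept within 0.27 log2 units of no change in untreated cells and none was called. Itga6, the alpha chain of the main laminin receptors of ES cells, averaged 40101 ± 3747 units in untreated sh4 cells and 42765 ± 1690.3 in untreated shCTR cells (−0.10 ± 0.08, adjusted p = 0.50). Itga5, the alpha chain of the classical fibronectin receptor, changed by −0.28 ± 0.12 (adjusted p = 0.10) and Itga4, which also binds VCAM-1, by 0.27 ± 0.16 (adjusted p = 0.28). Itgb5, another partner of alpha-V, rose by 0.48 ± 0.16 (adjusted p = 0.042), a call lost in 16 of 26 settings. With the slide as a block Itga5 and Itgb4 were called as well (adjusted p = 0.0046 and 0.016). With retinoic acid that block called Itga5 (−0.27, adjusted p = 0.014) and Itga7 (−0.25, adjusted p = 0.035) lower with sh4, and neither without it (−0.31 and −0.27, adjusted p = 0.12 and 0.060).

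Among the collagen-binding alpha chains, Itga11 rose with sh4 by 0.29 ± 0.10 (adjusted p = 0.048) in untreated cells, a call lost in 19 of 26 alternative settings, among them normexp correction (0.03). Itga10 changed by −0.13 ± 0.10 (adjusted p = 0.42). For Itga1 the probe used gave 0.16 ± 0.60 (adjusted p = 0.92), with slides between −1.23 and 2.25, whereas the other probe gave 2.54 and the mean over both 1.35 ± 0.30 (adjusted p = 0.0039). The other Itga1 probe was well above background on only 9 of the 15 arrays, and the probe used on 13. Itga2, its neighbour on chromosome 13, was not well above background on any array.

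Of the chains known from blood cells, Itgal, the alpha chain of the leukocyte receptor for ICAM proteins, fell in untreated cells (−0.44 ± 0.09, adjusted p = 0.0024), with 317 ± 37.0 units in sh4 cells and 427 ± 27.9 in shCTR cells (SD, n = 4 each). Its beta partner Itgb2 rose by 0.36 ± 0.11 (adjusted p = 0.031), a call lost under normexp correction (0.06, adjusted p = 0.77) and in 10 of 26 settings in all. Itgam changed by 0.07 ± 0.25 (adjusted p = 0.92) and Itga2b, the platelet alpha-IIb chain, by 0.16 ± 0.18 (adjusted p = 0.64). The probe used for Itgam begins with a run of repeated CA bases, and whether it reads Itgam alone was not tested. Other Itgam probes gave 0.10 and 0.07. Of 8 endothelial and blood markers, 1 rose and 4 fell with sh4 in untreated cells (median −0.27), against 14.4% and 14.2% of all genes (median 0.02). Of these markers 7 were well above background on each untreated sh4 array and 7 or 8 on each untreated shCTR array. Their summed signals were 3235 to 4478 in sh4 cells and 4099 to 4311 in shCTR cells. Their part in these results was not tested.

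**Figure D2:**
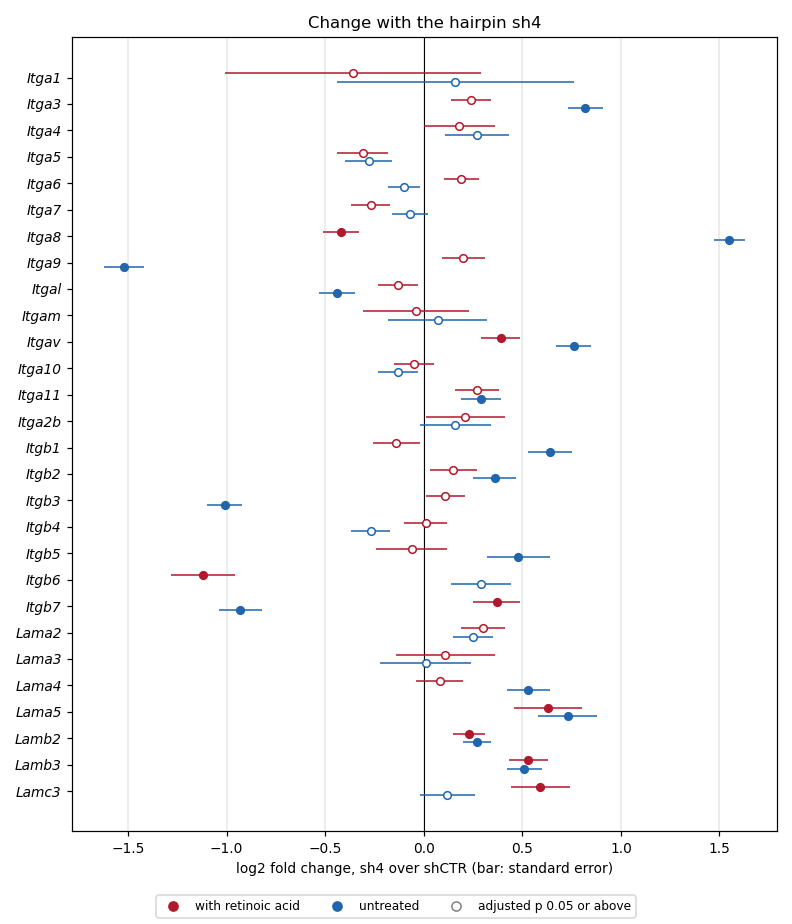
Log2 fold change of sh4 over shCTR (horizontal axis, bars are standard errors) of the 28 tested integrin and laminin genes, with retinoic acid (red) and untreated (blue); open points had an adjusted p of 0.05 or above. Itga8 lies at −0.42 with retinoic acid and at 1.55 untreated, Itga9 at 0.20 and −1.52, and Lama5 at 0.63 and 0.73.

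None of the 7 laminin chains was called lower with sh4. In untreated cells 4 of the 7 rose and 0 fell by limma, where 14.4% of all genes rose and 14.2% fell. All 7 changes were positive (0.01 to 0.73), and 5 had an unadjusted p under 0.05, as had 9069 of all 25087 genes. With retinoic acid 4 of 7 rose and 0 fell, where 10.9% of all genes rose and 10.3% fell, with changes of 0.08 to 0.63 and 5 at an unadjusted p under 0.05, as had 7670 of all genes. The count that rose was 2 of 7 without sh4 replicate 1 or replicate 4, without the 3 arrays rated for evaluation, under normexp correction and under median centring. In these fits 1582 to 2127 of all genes rose, in place of 2738. The signs of small untreated changes were not stable: 4 of 7 were positive under normexp correction, which put Lamc3 at −0.16. In no alternative was any of the 7 called lower with sh4.

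Lamb3, the beta-3 chain of epithelial anchoring sites, gave 881, 891 and 826 units in retinoic acid-treated sh4 cells, against 599, 617, 614 and 568 in retinoic acid-treated shCTR cells (0.53 ± 0.10, adjusted p = 0.0013). Untreated, it gave 368, 358, 306 and 305 units with sh4, against 236, 273, 208 and 222 with shCTR (0.51 ± 0.09, adjusted p = 6.0e-04). Neither pair of groups overlapped, and both calls held in all 26 alternatives. Lama3, the alpha-3 chain, changed by 0.11 ± 0.25 with retinoic acid and 0.01 ± 0.23 without (adjusted p = 0.86 and 0.98). Its second probe gave 0.18 with retinoic acid and −0.20 without.

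Lama5, the alpha-5 chain, is made by ES cells and the epiblast. It gave 29474, 28682 and 35332 units in retinoic acid-treated sh4 cells, against 18986, 15666, 23338 and 23436 in retinoic acid-treated shCTR cells (0.63 ± 0.17, adjusted p = 0.015), and 35608, 40867, 48966 and 47934 in untreated sh4 cells, against 21456, 25034, 29789 and 28315 in untreated shCTR cells (0.73 ± 0.15, adjusted p = 0.0025). The groups did not overlap in either case. The untreated call held in all 26 settings, and the call with retinoic acid was lost in 5 of them. Lamb2, the beta-2 chain of neuromuscular and kidney basement membranes, rose by 0.23 ± 0.08 with retinoic acid (adjusted p = 0.049) and 0.27 ± 0.07 without (adjusted p = 0.010), calls lost in 16 and 2 of 26 settings.

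Lama4, the alpha-4 chain of vessel and muscle basement membranes, rose by 0.53 ± 0.11 in untreated cells (adjusted p = 0.0025), with 48.2, 50.6, 45.7 and 59.7 units in sh4 cells and 35.8, 28.2, 38.4 and 39.6 in shCTR cells; the call was lost under normexp correction (0.07), quantile normalisation (0.49) and in the authors' table (0.19). With retinoic acid its change was 0.08 ± 0.12 (adjusted p = 0.77). Lamc3 rose with retinoic acid by 0.59 ± 0.15 (adjusted p = 0.013), a call lost under normexp correction (0.31, adjusted p = 0.21) and without sh4 replicate 1 or replicate 3 (adjusted p = 0.054 and 0.059), and had 0.12 ± 0.14 without (adjusted p = 0.64). Lama2, the alpha-2 chain of muscle, had 0.30 ± 0.11 with retinoic acid and 0.25 ± 0.10 without (adjusted p = 0.077 and 0.090). Its second probe gave 0.59 and 0.05, a difference of 0.55. The mean over both Lama2 probes was called with retinoic acid (0.45 ± 0.11, adjusted p = 0.011). For none of the 7 laminins was the difference between the hairpin changes called by limma (−0.45 to 0.47), while 2 had an unadjusted p under 0.05. The Lamc3 difference was called in 5 of 25 alternative settings. Among them were quantile normalisation (0.54, adjusted p = 0.0079), median centring (0.53, adjusted p = 0.041), the authors' table (0.29, adjusted p = 0.0057) and the slide block (0.48, adjusted p = 0.025). That of Lama4 was called with the replicate block (−0.49, adjusted p = 0.023).

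**Figure D3:**
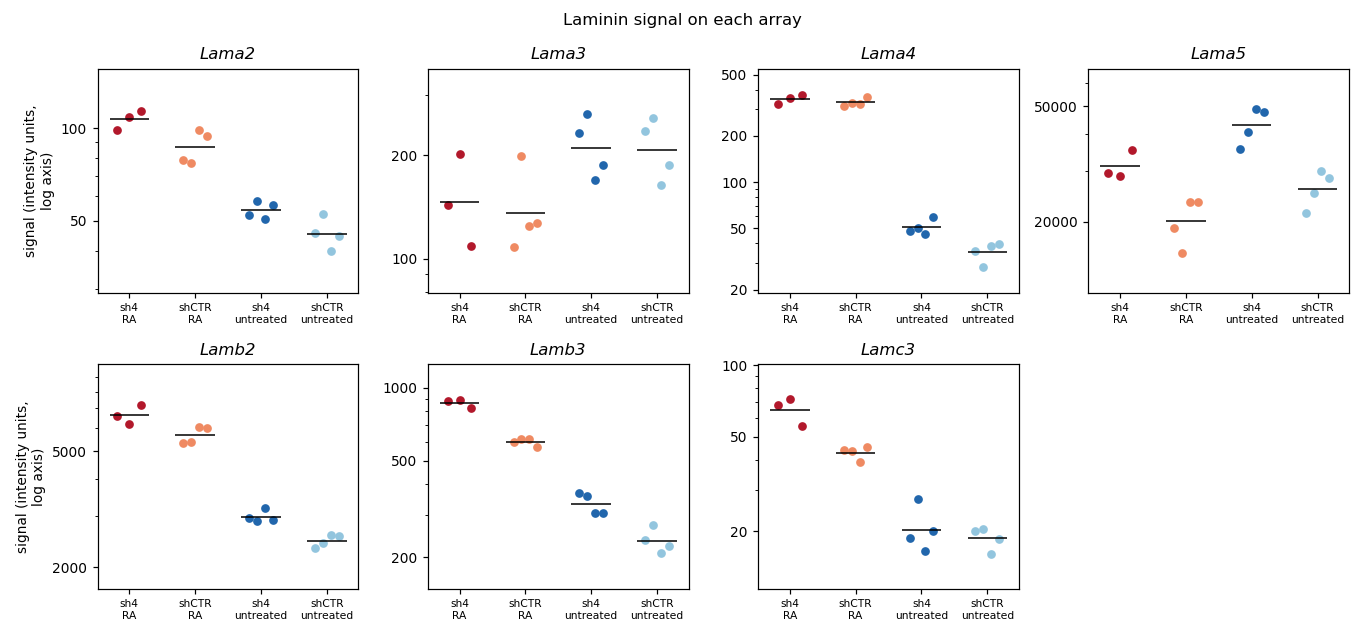
Signal of 7 laminin chains on each array (log axes, intensity units scaled to a common 75th percentile, a separate scale per gene). Each point is an array and lines are means on the log scale. For Lamb3 and Lama5 every sh4 array lies above every shCTR array of the same treatment, and Lama4 lies between 315 and 371 units in retinoic acid-treated cells and between 28.2 and 59.7 in untreated cells.

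Over all 28 genes with retinoic acid, sh4 against shCTR, 6 rose and 2 fell, where 10.9% of all genes rose and 10.3% fell. Past 2-fold, 0 rose and 1 fell (Itgb6), where 0.526% of all genes rose that far and 2.90% fell. The median change was 0.13, against 0.04 over all genes. Of the genes that rose, 4 had also risen in untreated cells (Itgav, Lama5, Lamb2 and Lamb3), which is 66.7% of the 6 and 36.4% of the 11. Itga8 and Itgb7 were called in opposite directions in the 2 comparisons. The counts depend on single arrays of the 3: without sh4 replicate 1 or replicate 4, 3 rose, and without replicate 4, 4 fell. Over all genes 2738 rose and 2588 fell. Without replicate 1 these were 1846 and 2103, and without replicate 4 they were 2127 and 2371. Groups that did not overlap were found for 10 of the 28 genes, against 32.4% of all genes, and in untreated cells for 15 of the 28, against 28.3%.

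Marker genes of other cell types moved with sh4 as well. Of all genes 14.4% rose and 14.2% fell with sh4 in untreated cells, and 10.9% and 10.3% in retinoic acid-treated cells. Of 8 trophectoderm markers measured, all 8 rose in untreated cells, with summed signals of 120401 to 137634 units in sh4 cells and 7978 to 10544 in shCTR cells. After retinoic acid the sums were 447455 to 546544 in sh4 cells and 492495 to 532715 in shCTR cells. Of 13 extraembryonic endoderm markers, all 13 fell with sh4 in retinoic acid-treated cells, with sums of 168063 to 180531 units in sh4 cells and 295668 to 326568 in shCTR cells. In untreated cells 8 of these fell and 1 rose. The part of these cell types in the integrin and laminin results was not tested.

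Most of these genes were called with retinoic acid against untreated, as were most of all genes tested. In sh4 cells 13 of the 28 rose and 7 fell, where 27.1% of all genes rose and 31.6% fell. In shCTR cells 14 rose and 7 fell, where 29.0% rose and 33.5% fell. The medians were 0.53 in sh4 cells and 0.31 in shCTR cells, against −0.12 over all genes in both. Of the genes that rose, 11 were shared, which is 84.6% of those in sh4 cells and 78.6% of those in shCTR cells, and 5 of the 7 that fell were shared. The 11 include Itgb6, whose probe was well above background on no untreated array. Past 2-fold, 9 rose and 4 fell in sh4 cells, where 14.5% of all genes rose that far and 11.1% fell. In shCTR cells 10 rose and 3 fell past 2-fold, where 16.2% and 11.7% did. Groups did not overlap for 20 of the 28 genes in sh4 cells, against 57.9% of all genes, and for 18 in shCTR cells, against 59.9%. Normexp correction left 8 of the 14 that rose in shCTR cells and removed Itga4, Itga5, Itgb2, Itgb6, Lama2 and Lamc3. Under it 5277 of all genes rose there, in place of 7270.

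Itga11, a collagen receptor chain of mesenchymal cells, gave 1042, 908 and 1036 units in retinoic acid-treated sh4 cells, against 58.5, 67.8, 62.2 and 55.0 in untreated sh4 cells. In shCTR cells it gave 761, 743, 909 and 886 units with retinoic acid, against 52.1, 54.2, 42.5 and 51.0 untreated. The log2 fold changes of 4.03 ± 0.11 in sh4 cells (adjusted p = 2.5e-12) and 4.05 ± 0.10 in shCTR cells (adjusted p = 6.5e-13) had a difference of −0.01 ± 0.15, with a 95% interval of −0.33 to 0.31. Lama4 gave 325, 352 and 371 units in retinoic acid-treated sh4 cells, against 48.2, 50.6, 45.7 and 59.7 in untreated sh4 cells (2.78 ± 0.12, adjusted p = 2.1e-10). In shCTR cells it gave 315, 328, 321 and 359 units with retinoic acid, against 35.8, 28.2, 38.4 and 39.6 untreated (3.23 ± 0.11, adjusted p = 1.5e-11). Normexp correction gave smaller changes, 3.07 in sh4 cells and 2.89 in shCTR cells for Itga11, and 1.87 and 1.83 for Lama4.

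Itga3 gave 2573, 2151 and 2625 units in retinoic acid-treated sh4 cells and 2134, 2223, 1903 and 2036 in retinoic acid-treated shCTR cells. Against the untreated values above, the changes were 1.74 ± 0.10 in sh4 cells (adjusted p = 2.6e-09) and 2.33 ± 0.09 in shCTR cells (adjusted p = 4.5e-11). Treated and untreated arrays were far apart in both. Itga4 gave 58.5, 62.4 and 59.2 units in retinoic acid-treated sh4 cells, against 8.4, 11.6, 13.4 and 13.6 in untreated sh4 cells, of which 3 were well above background. In shCTR cells it gave 51.6, 51.2, 53.9 and 54.9 units with retinoic acid, against 10.4, 11.4, 10.1 and 6.88 untreated, of which 1 was. The changes were 2.38 ± 0.18 (adjusted p = 5.2e-08) in sh4 cells and 2.47 ± 0.16 (adjusted p = 1.2e-08) in shCTR cells. Under normexp correction they were 0.54 (adjusted p = 0.0046) and 0.29 (adjusted p = 0.074). The second Itga4 probe did not pass the filter.

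Itgb6 was at least 2.17-fold higher with retinoic acid in sh4 cells and at least 4.72-fold higher in shCTR cells. These bounds set the treated mean against the dimmest signal that the scanner still called well above background on each untreated array. The fitted changes (limma adjusted p = 9.6e-09 and 3.4e-11) rest on untreated signals not well above background, so these p-values do not test the bounds. Normexp correction gave fitted changes of 0.11 in sh4 cells (adjusted p = 0.64) and 0.26 in shCTR cells (adjusted p = 0.17). Itgb1 rose by 0.86 ± 0.12 in sh4 cells (adjusted p = 3.8e-05) and 1.64 ± 0.11 in shCTR cells (adjusted p = 2.3e-08), and Itgav by 0.96 ± 0.10 and 1.33 ± 0.09 (adjusted p = 1.5e-06 and 2.0e-08). Second probes gave 1.07 in sh4 cells and 1.80 in shCTR cells for Itgb1, and 1.32 and 2.03 for Itgav. Lamb2, Lamb3, Lama2 and Lamc3 rose by 0.93 to 1.67 in both, Lamc3 by 1.67 in sh4 cells and 1.20 in shCTR cells, where normexp correction gave 0.57 and 0.10.

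Of the 28 genes Itgb7 fell the furthest in both, by 3.57 on the log2 scale in sh4 cells (adjusted p = 1.9e-11) and by 4.87 in shCTR cells (adjusted p = 3.2e-13), with means of 623 ± 112 units in treated and 7381 ± 789 in untreated sh4 cells (SD, n = 3 and 4) and of 479 ± 39.6 in treated and 13996 ± 1096 in untreated shCTR cells (SD, n = 4 each). Itgal fell by 1.45 ± 0.10 in sh4 cells and by 1.76 ± 0.09 in shCTR cells on the log2 scale (adjusted p = 2.1e-08 and 9.8e-10), and its second probe gave −1.70 and −2.05. Itga6 averaged 21135 ± 1575 units in treated and 40101 ± 3747 in untreated sh4 cells, and 18515 ± 1749 in treated and 42765 ± 1690.3 in untreated shCTR cells (−0.92 ± 0.09 and −1.21 ± 0.08, adjusted p = 9.7e-07 and 2.1e-08). Itga7 and Itga10 fell by 0.81 to 1.02 on the log2 scale in both. Lama5 fell in sh4 cells (−0.47 ± 0.17, adjusted p = 0.026), a call lost in 8 of 26 settings (quantile normalisation gave −0.18, adjusted p = 0.40), and had −0.37 ± 0.15 in shCTR cells (adjusted p = 0.051, and 0.0017 with the slide as a block). Lama3 had −0.52 ± 0.25 in sh4 cells (adjusted p = 0.099, and 0.0030 with that block) and fell in shCTR cells (−0.61 ± 0.23, adjusted p = 0.035), a call lost in 6 of 26 settings, among them the fits without treated shCTR replicate 1, 3 or 4 or untreated shCTR replicate 1 or 2. A second Lama3 probe gave −0.69 in sh4 cells and −1.08 in shCTR cells.

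Of the remaining chains, Itga5, Itgb2 and Itgb5 had 0.09 to 0.26 in sh4 cells, none called, and rose by 0.29 to 0.63 in shCTR cells, calls lost or turned in 15 of 26 settings for Itga5, 10 for Itgb2 and 1 for Itgb5. Itgb4, Itgam and Itga2b were called in neither, with changes of −0.22 to 0.31. Other Itgam probes gave −0.23 and −0.07 in sh4 cells and −0.36 and −0.08 in shCTR cells. The probe used for Itga1 gave 0.75 ± 0.65 in sh4 cells and 1.27 ± 0.60 in shCTR cells (adjusted p = 0.36 and 0.085). Its other probe, well above background on 9 of the 15 arrays, gave 0.71 and 2.41. The mean over both was 0.73 ± 0.33 and 1.84 ± 0.30 (adjusted p = 0.073 and 1.1e-04). With the slide as a block Itga5 and Itga2b were called in sh4 cells (adjusted p = 0.0022 and 0.020), and Itgb4, Itga8 and Itga1 in shCTR cells (adjusted p = 0.021, 0.032 and 0.046).

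Itga8, Itga9 and Itgb3 answered retinoic acid in another way in sh4 cells than in shCTR cells, which the differences of the changes above test. Itga8 fell in sh4 cells (−1.78 ± 0.09, adjusted p = 1.1e-09) and had 0.19 ± 0.08 in shCTR cells (adjusted p = 0.061). Itga9 rose in sh4 cells (1.00 ± 0.11, adjusted p = 2.0e-06) and fell in shCTR cells (−0.72 ± 0.10, adjusted p = 2.0e-05). Itgb3 rose in sh4 cells (1.23 ± 0.10, adjusted p = 1.1e-07) and had 0.11 ± 0.09 in shCTR cells (adjusted p = 0.33). Its second probe gave 1.28 in sh4 cells and 0.48 in shCTR cells. In all 3 the treated groups lay closer to each other than the untreated groups did. Over the 28 genes the difference was called upwards in 3 and downwards in 4, where 10.2% of all genes were called in each direction. Past 2-fold it was 3 upwards and 2 downwards, where 1.99% and 3.93% of all genes were. The median difference was −0.04, against 0.01 over all genes.

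With retinoic acid 27.1% of all genes rose and 31.6% fell in sh4 cells, and 29.0% and 33.5% in shCTR cells. Of 10 fibroblast and feeder cell markers, 9 rose with retinoic acid in both hairpins. Their summed signals were 42371 to 44982 units in treated and 2294 to 2421 in untreated sh4 cells. In shCTR cells the sums were 28977 to 39292 treated and 4211 to 4776 untreated. Col3a1, Dcn, Lum and Postn were well above background on no untreated shCTR array. Of the 13 extraembryonic endoderm markers, 12 rose and 1 fell with retinoic acid in sh4 cells, and all 13 rose in shCTR cells (medians 4.18 and 4.42). Of the 8 trophectoderm markers, 6 rose and 2 fell in sh4 cells, and all 8 rose in shCTR cells. The part of such cells in the results was not tested.

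**Figure D4:**
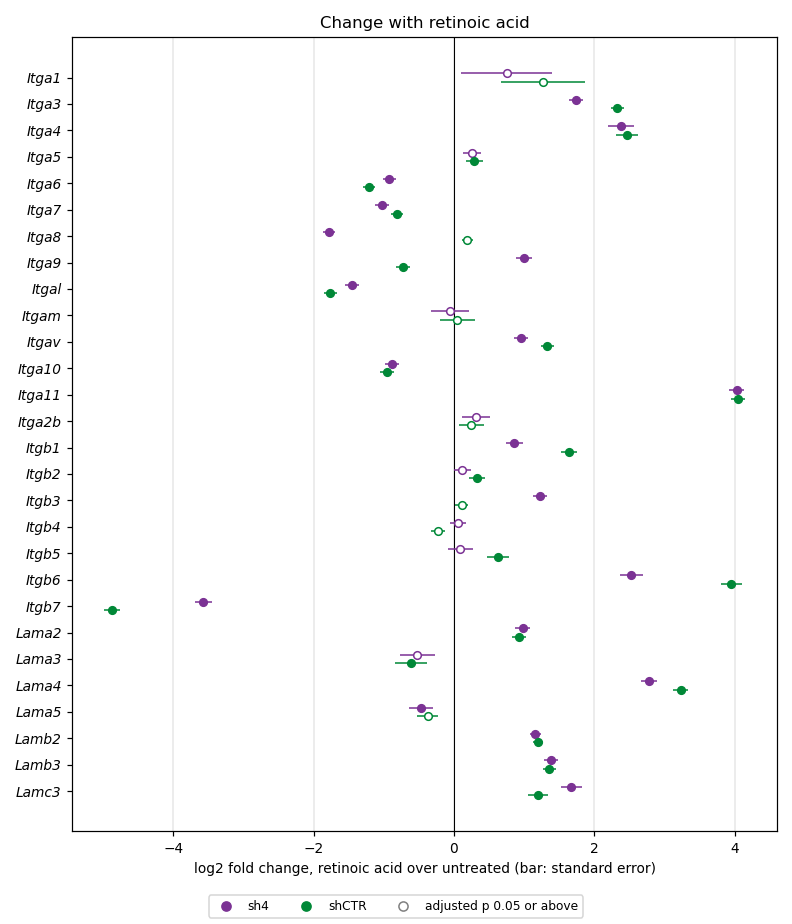
Log2 fold change with retinoic acid over untreated (horizontal axis, bars are standard errors) of the 28 tested integrin and laminin genes in sh4 cells (purple) and shCTR cells (green); open points had an adjusted p of 0.05 or above. Itga11 lies at 4.03 and 4.05, Itgb7 at −3.57 and −4.87, and Itga9 on opposite sides at 1.00 and −0.72. Points of Itgb6 are fitted changes, not bounds.

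Other genes of the pathway were counted by lists. Of 28 tested matrix ligands of integrins, 12 rose and 7 fell with sh4 in untreated cells (median 0.18), against 14.4% and 14.2% of all genes and their median of 0.02, led by Thbs1, which encodes thrombospondin-1 (4.39 ± 0.12, adjusted p = 3.1e-11), and Cyr61 (2.13 ± 0.13, adjusted p = 2.9e-08) upwards, and by Lama1 (−1.43 ± 0.06, adjusted p = 1.6e-09) downwards. With retinoic acid 5 rose and 12 fell with sh4 (median −0.17), against 10.9% and 10.3% of all genes and their median of 0.04, led by Col4a5 (1.39 ± 0.18, adjusted p = 1.0e-04) upwards and by the type IV collagen chains Col4a1 (−2.44 ± 0.09, adjusted p = 1.9e-09) and Col4a2 (−2.17 ± 0.14, adjusted p = 1.7e-07) downwards. With retinoic acid itself, 15 rose and 8 fell in sh4 cells and 20 rose and 6 fell in shCTR cells (medians 0.70 and 1.68). Of all genes 27.1% rose and 31.6% fell in sh4 cells, and 29.0% and 33.5% in shCTR cells (median −0.12 in both).

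Of 28 proteins that link integrins to the cytoskeleton or activate them, 9 rose and 8 fell with sh4 in untreated cells (median −0.04), set against the same shares of all genes as above. Parva, an actin-binding partner of integrin-linked kinase, rose by 1.85 ± 0.08 (adjusted p = 2.9e-09) and Zyx, a focal adhesion protein, by 1.82 ± 0.08 (adjusted p = 3.4e-09). Lims2, an adaptor of the same kinase complex, had −2.03 ± 0.09 (adjusted p = 3.6e-09). With retinoic acid 2 rose and 4 fell (median 0.07), against 10.9% and 10.3% of all genes, led by Parva (0.63 ± 0.09, adjusted p = 2.2e-04) and Parvb (−1.05 ± 0.15, adjusted p = 1.6e-04).

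With sh4, 14.4% of all genes rose and 14.2% fell in untreated cells (median 0.02). With retinoic acid 10.9% rose and 10.3% fell (median 0.04). Of 15 other laminin receptors and integrin partners in the membrane, 10 rose and 1 fell with sh4 in untreated cells (median 0.37). They were led by Sgce (1.44 ± 0.18, adjusted p = 2.9e-05) and the collagen receptor Ddr1 (1.20 ± 0.08, adjusted p = 1.1e-07). Sgcb (−0.61 ± 0.06, adjusted p = 5.7e-06) was the gene that fell. With retinoic acid 6 rose and 4 fell (median 0.16), led by the laminin alpha-5 receptor Bcam (0.83 ± 0.15, adjusted p = 0.0014) and the tetraspanin Cd9 (−0.99 ± 0.09, adjusted p = 4.0e-06). Of 10 ligands on cell surfaces, 3 rose and 2 fell in untreated cells, with F11r (0.86 ± 0.12, adjusted p = 1.2e-04) and Icam2 (−2.15 ± 0.21, adjusted p = 3.7e-06) ahead, and 1 rose and 4 fell with retinoic acid, with Cdh1, which binds alpha-E beta-7, at 0.79 ± 0.07 (adjusted p = 6.1e-06) and Vcam1, which binds alpha-4 integrins, at −1.89 ± 0.38 (adjusted p = 0.0027).

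With retinoic acid against untreated, where 27.1% of all genes rose and 31.6% fell in sh4 cells and 29.0% and 33.5% in shCTR cells, 11 of the 28 linkers rose and 6 fell in sh4 cells, and 11 rose and 11 fell in shCTR cells, led by Tgfb1i1 in sh4 cells (3.11 ± 0.08, adjusted p = 1.2e-12) and Zyx in shCTR cells (3.87 ± 0.08, adjusted p = 2.0e-13). Of the 15 membrane partners, 7 rose and 2 fell in sh4 cells, and 9 rose and 2 fell in shCTR cells, with the tetraspanin Cd82 ahead in both (2.98 ± 0.11 and 4.37 ± 0.10, adjusted p = 4.8e-11 and 3.9e-13). Of the 10 surface ligands, 6 rose and 2 fell in sh4 cells, and 6 rose and 3 fell in shCTR cells. Jam2, a junctional adhesion molecule, fell the furthest of these in both (−5.25 ± 0.23 and −5.27 ± 0.22, adjusted p = 2.7e-10 and 8.5e-11). Between treatments, the hairpin change differed upwards in 10.2% of all genes and downwards in 10.2%; the counts upwards and downwards were 3 and 14 of the 28 matrix ligands, 5 and 4 of the linkers, 1 and 6 of the partners and 1 and 3 of the surface ligands.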

How the data were processed

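Spot intensities of each array were deposited as scanner output. They come from Feature Extraction 10.7.3.1, which subtracted background and corrected a spatial trend with no scaling between arrays, per the file headers. The labels give 500 ng of total RNA per sample, labelled with Cy3. A deposited table of log2 values served as an alternative only: normexp correction (offset 50) and quantile normalisation of the mean signals gave its values to a median difference of 3.45e-10.

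Here, spots marked as outliers were dropped, spots of a probe were averaged and log2 signals were scaled by each array's 75th percentile. Probes had to be marked well above background on 3 or more arrays of some group, and a gene was read by its probe of highest mean. limma 3.58.1 in R 4.3.3 (package data.table, version 1.17.8) fitted 1 model of the 4 groups over all 15 arrays, with its moderated two-sided test, Benjamini-Hochberg adjustment over 25087 genes and a threshold of 0.05. The code was tested on simulated data. Comparisons were sh4 against shCTR per treatment, retinoic acid against untreated per hairpin, and the difference of the hairpin changes. One gene that the naming rule takes is not reported here. The members and lists were chosen with earlier results of these data known. Values on each array are given for members called with at least a 2-fold change in a hairpin comparison or the difference, or 4-fold with retinoic acid, and for Itgav, Lama5 and Lamb3, added after their values were seen. Listed pathway genes are named by the largest called changes. Coordinates of probes are mm9, as in the files; RefSeq promoters are GRCm38.p6, and all 33 symbols matched RefSeq. Replicate number and slide coincided except for retinoic acid-treated sh4 replicates 3 and 4, which lay on slides 2 and 3. In the other groups number and slide therefore cannot be told apart. Arrays of 1 number had r of −0.532 to 0.578, where those of 1 slide had none under 0.115. Slide and number were tried as blocks.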

Additional observations from a re-analysis of the deposited data

Results flagged for a closer look

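For 7 integrin genes the change with sh4 differed between retinoic acid-treated and untreated cells by limma's test of that difference (adjusted p under 0.05), given as the treated minus the untreated log2 change. It was positive for Itga9 (1.72), Itgb7 (1.29) and Itgb3 (1.12), and negative for Itga8 (−1.97), Itgb6 (−1.41), Itgb1 (−0.78) and Itga3 (−0.58). The value of Itgb6 is a fitted one with no measured level on its untreated side, where its probe was well above background on 0 arrays, and it was −0.14 (adjusted p = 0.77) under normexp correction. In 84 sets of arrays (a tested gene in a group of 4), 0 had a lone array far from the others by Dixon's test, where chance gives about 1 in 20.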

How the results depend on the processing

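Over 28 genes, 5 comparisons and the alternatives that keep all replicates or drop the 3 arrays rated for evaluation, 1382 values kept their side of the threshold and direction, 75 lost a call, 39 gained one and 1 turned: Itgb2 with retinoic acid in shCTR cells was −0.01 under normexp correction. For sh4 against shCTR with retinoic acid (6 rose and 2 fell), 2 rose and 0 fell under normexp correction, 2 and 1 under median centring, and 3 rose without the 3 arrays rated for evaluation. In the same comparison 1 fell where all 15 arrays had to be well above background, and 4 fell both with a slide block and with the replicate block. Over all genes 2738 rose and 2588 fell in this comparison. These counts were 1709 and 1683 under normexp correction, 1582 and 1718 under median centring, and 1878 and 2116 without those 3 arrays. With the slide block they were 3765 and 3306, and with the replicate block 3335 and 2963. Of 21423 genes well above background on all 15 arrays, 2762 rose and 2307 fell. Leaving out single replicates gave 3 to 6 of the 28 genes that rose and 2 to 4 that fell. With retinoic acid in shCTR cells (14 rose and 7 fell), 8 rose under normexp correction, 11 rose and 9 fell under median centring. Over all genes 7270 rose and 8395 fell there. Under normexp correction 5277 and 9278 did, and under median centring 5701 and 10390. For the difference of the hairpin changes, 2 were called downwards under median centring and 5 upwards in the authors' table. In untreated cells, sh4 against shCTR, 7 of the 28 rose and 5 fell in that table, in place of 11 and 4, and 7 rose under normexp correction and under median centring. Over all genes 3617 rose and 3550 fell there, against 2702 and 3059 in that table. Under normexp correction 2046 and 2593 did, and under median centring 2186 and 2796. Median centring moved the median of all genes with retinoic acid in shCTR cells to −0.33, in place of −0.12. The cause of these shifts was not tested. The calls of Itga8, Itga9, Itgb3 and Itgb7 in untreated cells and of their differences held in every alternative.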
